A study of Mus musculus with 7 samples.

Results

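The C1q/TNF-related proteins were followed as 7 genes, C1qtnf1, C1qtnf2, C1qtnf3, C1qtnf4, C1qtnf6, C1qtnf7 and C1qtnf9, across muscle arrays of mice with and without overload and with and without tamoxifen. The members are the family genes that have probe sets carrying 1 of these symbols alone in the platform annotation, 10 probe sets in all, among 18193 genes on the array. The family was chosen by the large measured difference of C1qtnf3 between overloaded and sham muscle on these arrays, so overload values and calls of the members are given as a description, without p-values, and support nothing about the family. For a gene with several probe sets, the one with the highest mean log2(signal + 1) leads and the other is given beside it. C1qtnf5 is represented on the array by a probe set shared with another gene and is not a member, and C1qtnf12, which the list of members does not hold, is given among the related genes.

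All mice carried the Pax7-CreER and Rosa26-DTA alleles and were 4 months old. In this Pax7-DTA model tamoxifen activates a Cre driven by Pax7, the transcription factor of muscle satellite cells, and Cre switches on diphtheria toxin. Because vehicle mice carry the same alleles and tamoxifen was not given to mice lacking the toxin allele here, an effect of the drug itself and an effect of losing satellite cells cannot be told apart. The 4 groups were tamoxifen with overload (3 arrays, 1 of a female), vehicle with overload (2 arrays, 1 of a female), tamoxifen with sham surgery (1 array of a male) and vehicle with sham surgery (1 array of a male), all of plantaris muscle. Overload lasted 1 week after synergist ablation, in which neighbouring muscles with the same action are removed. The titles name single mice, while the design text speaks of pooled right and left muscles of 11 animals, so the number of animals behind each array is uncertain and the spread between arrays may include technical variation.

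Signals are linear intensities of Affymetrix Mouse 430 2.0 arrays. The background level used here is a signal of 53.6, the 95th percentile of the mean levels of 77 olfactory, vomeronasal and taste receptor genes. Array medians lay between 88.2 and 127.7, and 66.8% to 72.7% of genes were above background. The 8 myofibre markers were above background on every array. Xist gave signals of 11715 and 10115 on the arrays labelled female, against 44.7 to 132.4 on the male ones. Pax7 gave 57.9, 9.97 and 120.4 on tamoxifen overload arrays, against 273.8 and 348.8 on vehicle overload arrays. In sham muscle it gave 41.2 with tamoxifen and 92.8 with vehicle. The fitted Pax7 difference in overloaded muscle, -2.67 ± 0.81 (log2, SE), did not pass (adjusted p = 0.399, limma), although it did without tamoxifen overload replicate 1, at -3.09. The 9.97 of tamoxifen overload replicate 2 was below background, so the size of both fitted values rests partly on a reading below it.

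C1q/TNF-related proteins are secreted paralogs of adiponectin. Most have a collagen-like stalk and a globular C1q domain at the C-terminus, through which chains assemble into trimers. Different members act as metabolic hormones, as local growth factors for cartilage and vessels, or as regulators of complement.

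Promoter sequences are shown for the 3 members with the clearest separation of overloaded and sham arrays, C1qtnf3, C1qtnf6 and C1qtnf2, taken from RefSeq on build GRCm38.p6 (250 bases before to 50 after the annotated start). The windows are chr15:10952082-10952381 (plus strand), chr15:78529602-78529901 (minus strand) and chr11:43474056-43474355 (plus strand), each printed 5′ to 3′ on the gene's strand. Capitals mark matches, on either strand, to a TATA box (TATAAA), a TEAD motif (CATTCC), an AP-1 motif (TGANTCA) or a SMAD motif (CAGAC).
C1qtnf3: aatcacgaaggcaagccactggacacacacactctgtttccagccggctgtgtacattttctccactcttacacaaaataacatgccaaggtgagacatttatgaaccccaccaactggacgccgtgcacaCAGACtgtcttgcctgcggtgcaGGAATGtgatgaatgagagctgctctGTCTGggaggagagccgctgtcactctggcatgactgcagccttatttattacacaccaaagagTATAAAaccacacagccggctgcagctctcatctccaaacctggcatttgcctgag
C1qtnf6: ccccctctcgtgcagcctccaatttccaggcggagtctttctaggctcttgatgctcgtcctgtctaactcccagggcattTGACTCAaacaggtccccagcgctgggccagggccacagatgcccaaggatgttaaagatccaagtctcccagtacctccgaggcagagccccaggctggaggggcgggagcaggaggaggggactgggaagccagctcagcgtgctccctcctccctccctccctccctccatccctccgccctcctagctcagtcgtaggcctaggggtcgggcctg
C1qtnf2: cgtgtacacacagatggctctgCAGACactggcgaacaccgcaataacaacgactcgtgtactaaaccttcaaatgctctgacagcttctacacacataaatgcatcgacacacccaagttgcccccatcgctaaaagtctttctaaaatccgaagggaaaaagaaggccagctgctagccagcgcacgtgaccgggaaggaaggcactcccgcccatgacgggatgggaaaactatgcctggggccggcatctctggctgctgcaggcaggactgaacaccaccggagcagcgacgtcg
The C1qtnf3 window held a TATAAA match at bases -6 to -1 from the start, 1 TEAD match at -96 to -91 and 2 SMAD matches. The C1qtnf6 window held 1 AP-1 match at bases -169 to -163, and the C1qtnf2 window 1 SMAD match at -228 to -224. No match overlapped another motif. Of all 32851 promoter windows of this length, 13.6% held TATAAA, 14.7% the TEAD motif, 7.81% the AP-1 motif and 49.6% the SMAD motif. None of the 4 motifs was in all 3 windows. Windows were on hand for 5 of the 7 members. The other two, C1qtnf7 and C1qtnf9, held 1 TEAD match each, and C1qtnf7 also 1 SMAD match. These are letter matches and not sites shown to be bound.

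The member with the largest difference was C1qtnf3, which encodes CTRP3 or cartducin, a secreted growth factor of cartilage cells. Its lead and only probe set (1422606_at) gave signals of 5380, 6886 and 5995 on tamoxifen overload arrays and 3857 and 2489 on vehicle overload arrays. In sham muscle it gave 77.4 with tamoxifen and 39.5 with vehicle, the last below background. All 5 overload arrays were thus far above both sham arrays. The fitted overload difference was 6.16 ± 0.19 (log2, SE). Within tamoxifen the group means differed 77.2-fold, and within vehicle the fold was at least 56.7, taken against the background level.

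C1qtnf6 encodes CTRP6, which in mice and humans restrains the alternative complement pathway by competing with factor B. Its signals (1431856_a_at) were 657.2, 875.3 and 576.5 on tamoxifen overload arrays and 622.6 and 491.6 on vehicle overload arrays. The sham arrays gave 45.0 with tamoxifen, below background, and 56.4 with vehicle, barely above it. The groups did not overlap, and the fitted difference was 3.63 ± 0.25 (log2, SE). Within tamoxifen C1qtnf6 was at least 12.7-fold higher, and within vehicle the means differed 9.66-fold.

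C1qtnf2, whose product CTRP2 stimulates fat oxidation and glycogen storage in cultured mouse muscle cells, had smaller but well-measured differences. Its probe set (1431079_at) gave 572.0, 502.2 and 633.4 on tamoxifen overload arrays and 499.9 and 412.6 on vehicle overload arrays. The sham arrays gave 192.2 with tamoxifen and 164.7 with vehicle. Every array lay above background and no overload array reached the sham range. The fitted difference was 1.40 ± 0.19 (log2, SE), 2.64-fold.

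C1qtnf1 encodes CTRP1, which binds collagen and inhibits platelet adhesion. Its lead probe set (1455582_at) gave 650.5, 423.6 and 423.0 on tamoxifen overload arrays and 461.1 and 326.1 on vehicle overload arrays. In sham muscle it gave 254.1 with tamoxifen and 152.3 with vehicle. The lowest overload array was above the higher sham array, and the fitted difference was 1.13 ± 0.27 (log2, SE). Without the vehicle sham array it was 0.76 and no longer called, and it also lost its call after quantile normalization and median centring. The second probe set of C1qtnf1 (1448912_at) scattered widely. It gave 216.4, 224.7 and 13.9 on tamoxifen overload arrays and 124.7 and 19.9 on vehicle overload arrays, against 8.23 with tamoxifen and 6.34 with vehicle in sham muscle. Both sham arrays and 2 of the 5 overload arrays were thus below background with this probe set, 1 of them in each treatment.

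C1qtnf7, the gene of CTRP7, a little-studied plasma protein linked to glucose handling in mice, stayed dim. Its lead probe set (1460163_at) gave 86.1, 80.7 and 69.3 on tamoxifen overload arrays and 71.2 and 50.6 on vehicle overload arrays. The sham arrays, at 14.5 with tamoxifen and 34.5 with vehicle, were below background. Of the overload arrays 4 of 5 were above it, so the difference is a bound of at least 1.31-fold. The second probe set (1429030_at) gave 94.7, 49.2 and 116.2 on tamoxifen overload arrays and 56.7 and 55.1 on vehicle overload arrays, against 38.7 with tamoxifen and 9.27 with vehicle in sham muscle. Its bound was at least 1.30-fold. Under 10 of 15 alternatives C1qtnf7 was not called, which include leaving out any 1 of the 5 overload arrays or the tamoxifen sham array.

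C1qtnf4 was the member with lower values in overloaded muscle. It encodes CTRP4, which lacks the collagen-like stalk of the other members and acts on food intake in mice. Its lead probe set (1417050_at) gave 164.0, 160.2 and 139.6 on tamoxifen overload arrays and 158.0 and 209.9 on vehicle overload arrays. The sham arrays gave 413.2 with tamoxifen and 301.2 with vehicle, above every overload array. The fitted difference was -0.95 ± 0.24 (log2, SE). It lost its call without the tamoxifen sham array (-0.72) or without vehicle overload replicate 2 (-1.03). The second probe set (1441648_at) was below background on all 7 arrays, between 4.77 and 26.5, so it gives no fold.

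C1qtnf9 encodes CTRP9, the closest paralog of adiponectin, which in mice acts on heart muscle and vessels. It was well above background throughout (1442033_at), with 1190, 873.3 and 1247 on tamoxifen overload arrays and 1317 and 993.9 on vehicle overload arrays. The sham arrays gave 1284 with tamoxifen and 1162 with vehicle. The overload arrays spanned the sham values on both sides, and the fitted difference of -0.27 ± 0.17 (log2, SE) was not called.

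**Figure D1:**
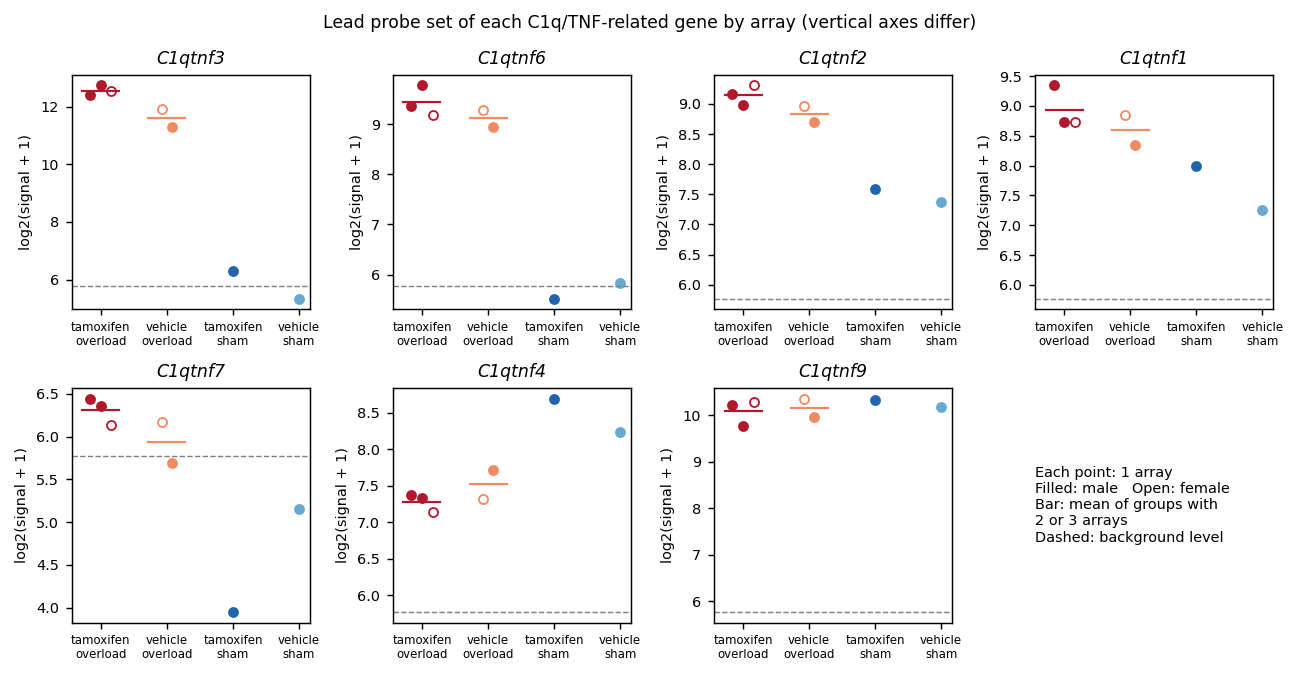
Log2(signal + 1) of the lead probe set of each gene on each of the 7 arrays, with a bar at the mean of groups of 2 or 3 arrays, open points for females and a dashed line at the background level. Overload arrays lie above both sham arrays for C1qtnf3, C1qtnf6, C1qtnf2, C1qtnf1 and C1qtnf7, below them for C1qtnf4, and around them for C1qtnf9.

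**Figure D2:**
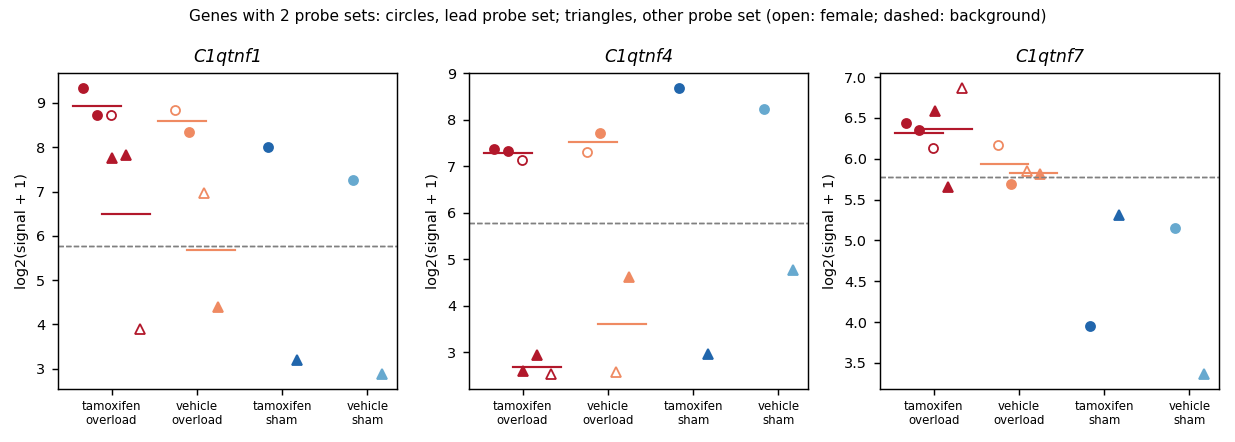
Log2(signal + 1) by group for the 3 genes with 2 probe sets, with circles for the lead and triangles for the other probe set. The second C1qtnf1 probe set ranges from 13.9 to 224.7 in signal over the tamoxifen overload arrays, and the second C1qtnf4 probe set lies below background everywhere.

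Counted together, 5 of 7 members were called higher and 1 lower with overload at an adjusted p under 0.05, where 22.9% of all genes were called in either direction (14.7% higher, 8.16% lower). This contrast led to the choice of the family, so the count is not evidence about it. The overload arrays lay wholly above the sham arrays for 5 members and wholly below for 1, as they did for 23.1% and 18.3% of all genes. The median member difference was 1.40 (log2), against 0.07 over all genes. Centring each array on its median lowered the median of all genes by 0.29 and quantile normalization by 0.13 on the log2 scale, and under either of them 3 members were called higher and 1 lower. Each sham group is 1 array, and its spread was taken to equal that within the overload groups. With variances not moderated along an intensity trend no member was called, and 0 of 18193 genes (5234 at an unadjusted p under 0.05).

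Whether tamoxifen changed the family in overloaded muscle was tested with 3 tamoxifen against 2 vehicle arrays, a comparison the choice of members did not use. C1qtnf3 was higher on each tamoxifen array, at 5380 to 6886, than on the vehicle arrays, at 3857 and 2489. The fitted difference was 1.01 ± 0.19 (log2, SE), 2.01-fold, with an unadjusted p of 0.000822. It did not pass when adjusted over all genes (adjusted p = 0.378, limma). All tamoxifen arrays likewise lay above both vehicle arrays for 16.9% of all genes. The female tamoxifen array was 1.55-fold above the female vehicle array, and the male tamoxifen arrays averaged 2.45-fold above the male vehicle array. Without tamoxifen overload replicate 1 the difference was 1.05 and passed (adjusted p = 0.0256, limma), as did 227 of all genes. Without vehicle overload replicate 2 it was 0.64 (adjusted p = 0.952, limma), and over all 15 alternatives adjusted p lay between 0.0256 and 0.952. In sham muscle the tamoxifen array also gave the higher signal, 77.4 against 39.5 with vehicle, close to background and with no test.

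The other members differed less between treatments. C1qtnf2 was also higher on every tamoxifen overload array than on the vehicle overload arrays, though by little, with a difference of 0.36 ± 0.19 (adjusted p = 0.519, limma). C1qtnf1, C1qtnf6 and C1qtnf7 had differences of 0.34 ± 0.27, 0.31 ± 0.25 and 0.39 ± 0.45, C1qtnf4 of -0.29 ± 0.24 and C1qtnf9 of -0.01 ± 0.17 (log2, SE), with overlapping arrays in all 5 (adjusted p from 0.665 to 0.982, limma). The female tamoxifen array was at 0.92 times the female vehicle array for C1qtnf1, 0.93 times for C1qtnf6 and 0.97 times for C1qtnf7, while the male tamoxifen arrays averaged 1.61, 1.54 and 1.63 times the male vehicle array. These 3 differences rest on vehicle overload replicate 2, and their signs turned without it, to -0.12, -0.11 and -0.04. In all, 0 of 7 members passed, where 0% of all genes did (1932 of 18193 had an unadjusted p under 0.05).

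**Figure D3:**
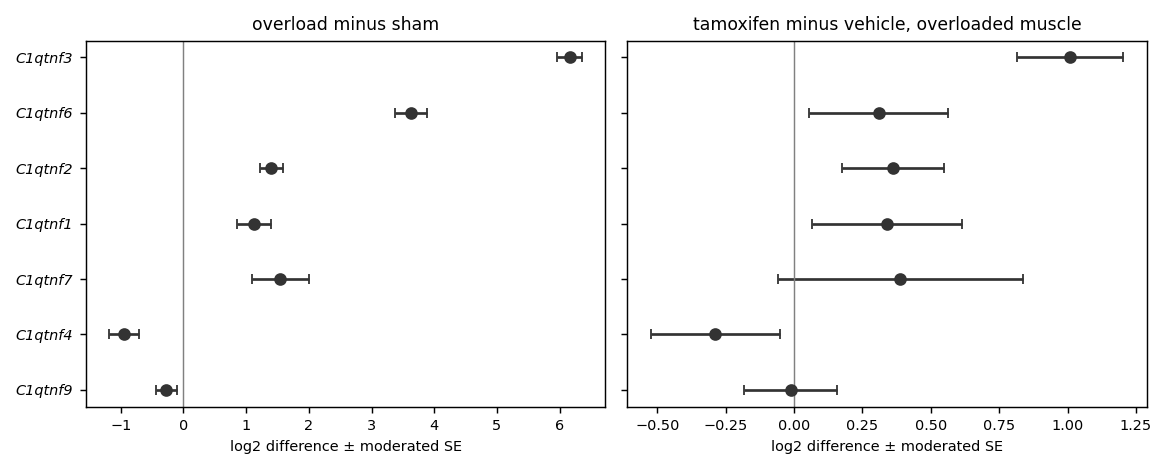
Fitted log2 differences with moderated standard errors for the 7 genes, overload minus sham on the left and tamoxifen minus vehicle in overloaded muscle on the right (horizontal axes differ). C1qtnf3 has the largest difference in both panels, 6.16 and 1.01, and the right-hand difference did not pass over all genes.

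The overload differences of the members were not shown to depend on treatment. The interaction, the overload difference with tamoxifen minus that with vehicle, was 0.06 ± 0.35 for C1qtnf3 and 0.63 ± 0.46 for C1qtnf6 (log2, SE; adjusted p = 0.999 and 0.983, limma). For both genes 1 of the 2 sham arrays was below background. The interaction was -0.74 ± 0.43 for C1qtnf4 (adjusted p = 0.959, limma), and for C1qtnf7, with both sham arrays below background, no value is given. No member passed, where 0% of all genes did (1021 at an unadjusted p under 0.05), and standard errors of this size leave room for sizeable differences. Females and males also did not differ past the test in any member. C1qtnf9 had the largest such difference, female minus male 0.34 ± 0.17 (adjusted p = 0.980, limma). For this contrast 0 of 7 members passed, where 0.0495% of all genes did, with 911 at an unadjusted p under 0.05.

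The 5 genes whose pattern over the 7 arrays was most like that of C1qtnf3, among 11797 above background on all overload arrays, were Bgn, Cthrc1, Loxl1, Mfap2 and Anpep, with Pearson correlations from 0.9985 to 0.9995. Bgn encodes the matrix proteoglycan biglycan, Cthrc1 a secreted protein of injured and remodelling tissue, Loxl1 an enzyme that crosslinks elastin, Mfap2 a microfibril protein and Anpep a cell-surface aminopeptidase. Cthrc1 gave signals of 6341, 10059 and 8705 on tamoxifen overload arrays and 4003 and 2759 on vehicle overload arrays, against 52.1 with tamoxifen and 27.4 with vehicle in sham muscle. Like C1qtnf3 it was highest with tamoxifen in overloaded muscle. The 5 genes were picked for their likeness to C1qtnf3 over these same arrays, so this shared order is not a separate observation. Their values also share the overload contrast, so correlations near 1 follow from any large common difference. In the same list C1qtnf2 and C1qtnf6 ranked 133 and 160, at 0.9869 and 0.9856. C1qtnf1 was at 0.8944 (rank 1943), C1qtnf9 at -0.2945 and C1qtnf4 at -0.9287. Within the 5 overload arrays C1qtnf2 and C1qtnf6 were at 0.7676 and 0.7816. C1qtnf7 was below background on 1 overload array and was not compared.

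**Figure D4:**
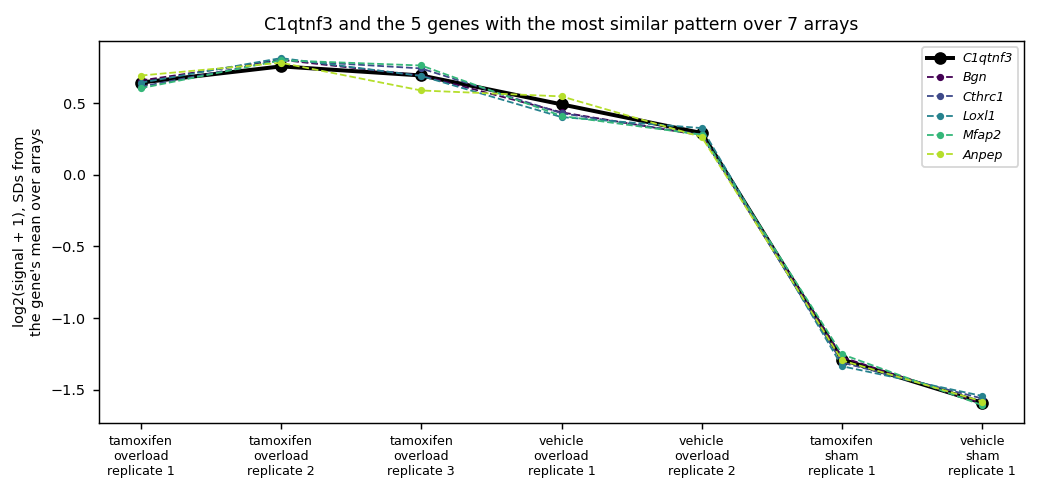
Log2(signal + 1) of C1qtnf3 and the 5 most similar genes on each array, in standard deviations from the gene's own mean over the 7 arrays. The lines nearly coincide, with sham arrays lowest and tamoxifen overload arrays highest. The 5 genes were chosen for this likeness, so the agreement is not a separate observation.

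Other genes with C1q domains were measured beside the family. Of 19 such genes 10 rose and 1 fell with overload, where 14.7% of all genes rose and 8.16% fell. Col8a1, a chain of the network-forming collagen VIII, rose by 3.36 ± 0.20 (log2, SE; adjusted p = 7.11e-05, limma). Emilin1, an elastic-fibre glycoprotein, rose by 2.64, and C1qb and C1qa, chains of complement C1q made mainly by macrophages, by 2.52 and 1.96. Adipoq, which encodes adiponectin, was the gene that fell, by 1.16 on the log2 scale. Its signals were 877.7, 822.6 and 2500 on tamoxifen overload arrays and 1115 and 633.9 on vehicle overload arrays, against 1871 with tamoxifen and 1331 with vehicle in sham muscle. The female tamoxifen array therefore overlapped the sham arrays. C1ql2, Cbln2, Cbln3, Cbln4 and Col10a1 were below background on every array. C1qtnf12, the further family gene measured with a symbol of its own, had a difference of 0.05 ± 0.14 (log2, SE) and was not called.

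Among 10 receptors and binding partners of adiponectin-like proteins 2 rose and 1 fell, a share near the 22.9% of all genes called. Cdh13, the T-cadherin that binds adiponectin, rose by 0.97 ± 0.18 (log2, SE) and Vwf, the platelet adhesion factor, by 0.75, while the insulin receptor gene Insr fell by 0.62 on the log2 scale. Adipor2, an adiponectin receptor, stood at -0.61 ± 0.20 and missed the threshold (adjusted p = 0.0613, limma). Adgrb3 and Rxfp1 were below background on all arrays. AMPK, the energy sensor that several C1q/TNF-related proteins activate, had 2 of 7 subunit genes lower and none higher. This count is likewise near the 22.9% of all genes called in either direction, of which 8.16% of all genes were lower. Prkaa2 and Prkab2, a catalytic and a regulatory subunit, fell by 1.27 and 1.02 on the log2 scale. Prkaa1, Prkab1, Prkag3 and Prkag2 had values of 0.54, 0.57, 0.43 and 0.15 and Prkag1 of -0.41, and none of these passed.

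Genes around the known actions of CTRP6 and CTRP3 were also examined. Of 8 listed genes of the alternative complement pathway and its receptors 5 were measured. Of these 5 genes 4 rose, where 14.7% of all genes did. Cfb, the factor B gene, gave 869.2, 875.5 and 1103 on tamoxifen overload arrays and 634.2 and 590.8 on vehicle overload arrays, against 239.4 with tamoxifen and 88.5 with vehicle in sham muscle, a rise of 2.28 ± 0.17 (log2, SE). C3ar1, an anaphylatoxin receptor, rose by 2.25 and Cfp, properdin, by 1.98. Against the same share of all genes, 6 of 9 TGF-beta ligands, receptors and latency proteins rose, among them Tgfb1 by 2.01, Tgfbr2 by 1.49 and Ltbp3 by 1.21.

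Markers of several cell types were read against the same shares of all genes, 14.7% higher and 8.16% lower. Of 11 markers of fibroblasts and fibro-adipogenic progenitors 9 rose (median 1.28, log2), among them Pdgfrl by 2.97 and Lum by 2.60, and of 12 tendon and cartilage markers 6 rose and 1 fell (median 1.09), with Tnmd higher by 2.09. Of 10 macrophage markers 9 rose (median 2.27), with Lgals3 higher by 3.11. Of 7 adipocyte markers 5 fell (median -1.16), among them Plin4 by 1.95 on the log2 scale. The mean log2 level of the adipocyte list was 6.7281 to 7.2421 on male overload arrays. On female overload arrays it was 8.4761 with tamoxifen and 8.1402 with vehicle. The sham arrays, both of males, gave 8.5007 with tamoxifen and 8.3545 with vehicle. The low level was thus seen on male overload arrays, and a fall in females was not tested apart, for want of a female sham array. Of 8 satellite cell markers 3 rose (median 1.03), of 7 smooth muscle and pericyte markers 2 rose (0.33), of 7 endothelial markers 1 rose and 1 fell (0.33), and of 4 Schwann cell markers 2 fell (-0.77). The smooth muscle and endothelial counts are near the share of all genes called. None of 8 myofibre markers was called (median -0.34). The summed signal of the fibroblast markers was 69158 to 79530 on tamoxifen overload arrays and 73780 and 56820 on vehicle overload arrays, against 36397 with tamoxifen and 30950 with vehicle in sham muscle. That of the tendon and cartilage markers was 50333 to 63781 with tamoxifen and overload and 55185 and 30462 with vehicle and overload, against 27998 and 22774 in tamoxifen and vehicle sham muscle. The part of these cell types in the values of C1qtnf3 and the other members was not tested, and in whole muscle more cells of a type and more RNA per cell cannot be told apart.

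**Figure D5:**
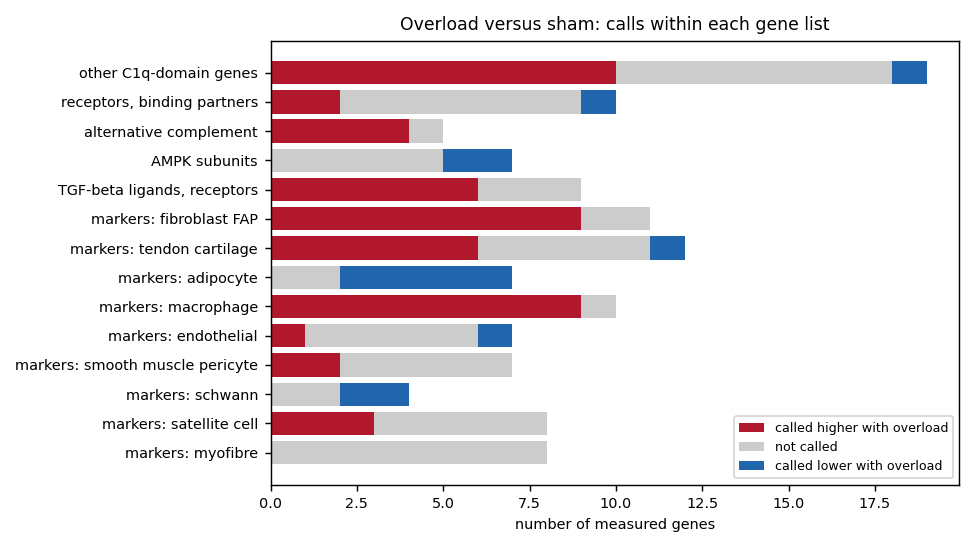
Number of measured genes called higher, not called and called lower with overload in each list of related genes and cell type markers. Calls are mostly higher in the C1q-domain, complement, TGF-beta, fibroblast and macrophage lists and mostly lower among adipocyte markers.

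Between treatments in overloaded muscle none of the 124 genes in these lists passed over all genes. Most lists had mainly positive differences, against a median of 0.03 (log2) over all genes. This held for all 12 tendon and cartilage markers (median 0.80), all 11 fibroblast markers (0.26), all 7 endothelial markers (0.35), all 7 smooth muscle and pericyte markers (0.31) and 9 of 10 macrophage markers (0.56). It held likewise for 3 of 4 Schwann cell markers (0.67), all 5 complement genes (0.69), all 9 TGF-beta genes (0.20) and 14 of 19 C1q-domain genes (0.47). That last count includes Cbln2, Cbln3 and Col10a1 as positive and C1ql2 and Cbln4 as negative, all below background on every array. In mean log2 level, vehicle overload replicate 1 lay within the tamoxifen overload range for endothelial markers (9.8502, against 9.6397 to 9.8925). The same held for fibroblast (11.8542, against 11.8147 to 12.0021) and Schwann cell markers (8.0282, against 7.5658 to 8.7077). There vehicle overload replicate 2 was lower, at 9.1364, 11.4779 and 7.3526. In the other lists with mainly positive differences both vehicle overload arrays lay below every tamoxifen overload array in mean log2 level. For tendon and cartilage markers vehicle replicate 1 was at 10.1823 and replicate 2 at 9.1125, against a lowest tamoxifen level of 10.3451. For smooth muscle and pericyte markers they were at 10.7965 and 10.3351, against 10.8675. In summed signal vehicle replicate 1 lay within the tamoxifen range for tendon and cartilage markers (55185, against 50333 to 63781). It also did for C1q-domain genes (19499.8, against 18876.6 to 28223.7). Satellite cell markers had 1 of 8 positive (-0.84), myofibre markers 0 of 8 (-0.18), AMPK subunits 2 of 7 (-0.05), receptors and binding partners 4 of 10 (-0.07) and adipocyte markers 3 of 7 (-0.25). The positive receptors and binding partners include Adgrb3 and Rxfp1, below background on every array. Among the tendon and cartilage markers Comp, a cartilage and tendon matrix protein, stood at 0.88 ± 0.21 (log2, SE; adjusted p = 0.378, limma). Its signals were 6148, 6360 and 7336 on tamoxifen overload arrays and 5820 and 2555 on vehicle overload arrays, so the male vehicle array (replicate 2), also the lowest overload array for C1qtnf3, stood apart. In the C1q-domain list Emilin1 stood at 1.17 ± 0.27 and Col8a2 at 1.06 ± 0.23 (log2, SE; adjusted p = 0.378 for both, limma). For both genes all tamoxifen arrays lay above both vehicle arrays, as for 16.9% of all genes. Without tamoxifen overload replicate 1, 9 of the 124 genes passed, where 227 of 18193 genes did. Among the 9 were Emilin1 and Col8a2, higher with tamoxifen, and Pax7, lower at -3.09 with tamoxifen overload replicate 2 below background.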

How the data were processed

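RNA from plantaris was measured on 7 Affymetrix Mouse 430 2.0 arrays. Per the labels' protocols, targets were made with kits for whole-transcript arrays, which are not the usual ones for this array, so how targets were made is uncertain. The deposited intensities are linear. The authors brought all arrays to a common level, since the mean without the lowest and highest 2% of probe sets is 500.0 on each. The submitters' processing notes name Partek; how probe sets were summarised is not stated there.

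Values were taken as log2(value + 1). Of 45101 probe sets 34945 had a single symbol (34741 matched by Entrez identifier to RefSeq names, 204 did not), 932 had several, 9160 had none and 64 were controls. The brightest probe set by mean stands for each of 18193 genes. A linear model with terms for group and sex was fitted with limma 3.58.1 (R 4.3.3), with variances moderated along the intensity trend (2 residual and 5.95 prior degrees of freedom). Tests were two-sided, with Benjamini-Hochberg adjustment over all genes and a threshold of 0.05. SE is limma's moderated standard error. A fold against a side at or below background on all its arrays is a bound, with that side's arrays raised to the background level.

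The members and the 15 gene lists (125 of 141 entries measured, 124 different genes) were chosen with earlier results of these data known. Text names all members and the 5 genes most correlated with C1qtnf3. List genes named are drawn from the 4 of each list with the largest differences among those above background on 1 or more arrays. Not all of these are named. Larger differences left unnamed include those of Aif1, Trem2, Fcgr1, Ltbp2, Col2a1, Sox9 and Acan, each below background on some arrays. Other genes were named where a count or check needed them, after their values were seen. Alternatives were no sex term, male arrays only, quantile normalization, median centring, a pseudocount of 16, a filter for genes above background on 2 or more arrays, no intensity trend, averaging all probe sets of a gene, and leaving out each array in turn. Figures were drawn with matplotlib 3.10.9.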

Additional observations from a re-analysis of the deposited data

Results flagged for a closer look

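The platform annotation gives 1 probe set (1424762_at) to Mfrp and C1qtnf5 together, so the members and the gene-wise fit left it out. It gave more signal on every overload array than in sham muscle, as the lead probe sets of 23.1% of all genes did. It was flagged for this separation. Its signals were 819.0, 1256 and 1189 on tamoxifen overload arrays and 873.4 and 639.9 on vehicle overload arrays, against 398.6 with tamoxifen and 265.0 with vehicle in sham muscle. In a fit over all probe sets its overload difference was 1.32 ± 0.21 (log2, SE), given as a description because that separation picked it. In the same fit, adjusted over all probe sets, neither probe set of C1qtnf7 was called with overload. In overloaded muscle the tamoxifen arrays overlapped the vehicle arrays (difference 0.57 ± 0.21, adjusted p = 0.483, limma). The signal cannot be assigned to either gene. No member passed a test of a difference in its overload response between treatments, and groups of at most 3 arrays are too small to be screened for single outlying arrays.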

How the results depend on the processing

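For overload against sham 6 members were called, 4 to 5 when 1 array was left out and 0 without the intensity trend; C1qtnf3, C1qtnf6 and C1qtnf2 lost their calls in that setting alone, of 15. Over the alternatives the log2 difference of C1qtnf3 ranged from 5.68 to 6.63, of C1qtnf6 from 3.29 to 3.94 and of C1qtnf2 from 1.11 to 1.51, and no member changed sign. The mean of both probe sets ended the calls of C1qtnf1 (2.32) and C1qtnf4 (-0.63). For the 124 related genes and markers the count of 64 became 0 without the intensity trend and ran from 44 to 69 when 1 array was left out. For tamoxifen against vehicle in overload 0 members and 0 related genes were called, 0 to 1 and 0 to 9 when 1 array was left out, the higher values without tamoxifen overload replicate 1; the cause was not tested. The difference of C1qtnf3 ranged from 0.64 to 1.29. When 1 array was left out, C1qtnf1 ran from -0.124 to 0.685, C1qtnf6 from -0.111 to 0.625 and C1qtnf7 from -0.037 to 0.708, with the sign turned without vehicle overload replicate 2 alone. C1qtnf9 ran from -0.133 to 0.091 and turned to 0.037 with male arrays only, without tamoxifen overload replicate 3 and without vehicle overload replicate 1, and to 0.091 without tamoxifen overload replicate 2. The fits without 1 of the female arrays differ little from that of male arrays only, because the sex term absorbs the remaining female. The interaction cannot be estimated without a sham array, and in the other alternatives no member was called for it or for sex. No paired analysis was possible because the titles number 2 male tamoxifen overload mice and no others. Signals near background limit C1qtnf7, the second probe sets and the sham side of C1qtnf3 and C1qtnf6.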
